A study of Homo sapiens with 2 samples.

Results

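Autophagy delivers cytoplasm, damaged organelles and microbes to the lysosome inside a double membrane, the autophagosome. 4 genes that act at separate steps of that route are described here: UVRAG, ATG9A, ATG3 and CALCOCO2. Each was read through all of its probe sets, groups of probes that cover roughly an exon, which the array annotation assigns to that symbol and to no other gene. There were 57 of these among 42575 probe sets with a single symbol, 14 for UVRAG, 17 for ATG9A, 14 for ATG3 and 12 for CALCOCO2, and no probe set with several symbols named any of the 4 genes. The whole table held 2792 genes with single-symbol probe sets. RNA came from HepG2, a human hepatoma line in which hepatocyte genes are active, grown on collagen. The knockdown group, 1 array, had received a locked nucleic acid (LNA), a chemically stabilised antisense oligonucleotide, against TUC338, an ultraconserved noncoding RNA, and the control group, 1 array, a control LNA. The LNA sequences, the dose and the time after transfection are not stated in the labels, no probe set was annotated to TUC338, and the knockdown is stated in the design text without a value.

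With 1 array per condition there was no replicate and no test was possible, so each difference below compares 2 arrays and has no p-value. The SD given with a gene mean is that over the probe sets of the gene, which share the same 2 RNA samples, and it does not measure the spread between cultures. Levels are log2 intensities, and a difference is the knockdown level minus the control level. The knockdown array was the brighter one, with a median intensity of 507 against 422 on the control array, and the median gene differed by 0.28 in deposited values. Differences are therefore given both as deposited and relative to this median gene. Over genes with at least 4 probe sets the gene means had an SD of 0.30, and 50.3% of the 2742 such genes lay above the median gene of all 2792. Of the hepatocyte markers in the table, ALB had mean levels of 12.55 in the knockdown, against 12.35 in the control, TF 12.92 and 12.64, and APOB 12.66 and 12.41. FGG had mean levels of 10.53 in the knockdown, against 9.98 in the control. Relative to the median gene ALB differed by -0.08, TF by 0.0017, APOB by -0.03 and FGG by 0.27. The only fibroblast marker in the table, COL1A1, was at 7.89 in the knockdown, against 8.51 in the control, a difference of -0.90 ± 0.33 relative to the median gene whose part in the results below was not tested. No leukocyte or endothelial marker on the lists was analysed here. In RNA from a whole culture, fewer cells that express a gene and less RNA per cell cannot be told apart.

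The steps follow one another. A kinase complex starts the process, a lipid kinase complex built on BECN1 marks the membrane with phosphatidylinositol 3-phosphate, vesicles carrying ATG9A seed the growing membrane, and a ubiquitin-like conjugation system attaches ATG8 family proteins such as GABARAP to its lipids. Cargo receptors then tie the material to be degraded to those ATG8 proteins, and the closed autophagosome fuses with the lysosome. In liver cells this route degrades mitochondria, lipid droplets and protein aggregates, and it is active during fasting.

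CALCOCO2 was higher on the knockdown array at all 12 probe sets and ATG9A was lower at 14 of 17. ATG3 and UVRAG were higher by somewhat more than the median gene, which differed by 0.28 in deposited values. In deposited values the mean differences were 0.93 ± 0.31 for CALCOCO2, 0.48 ± 0.30 for ATG3, 0.44 ± 0.22 for UVRAG and -0.28 ± 0.25 for ATG9A (log2, SD over probe sets). Relative to the median gene they were 0.64, 0.20, 0.15 and -0.57. Across all probe sets 75.2% were higher and 24.8% lower in deposited values, so being higher was the common case and being lower was not.

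**Figure D1:**
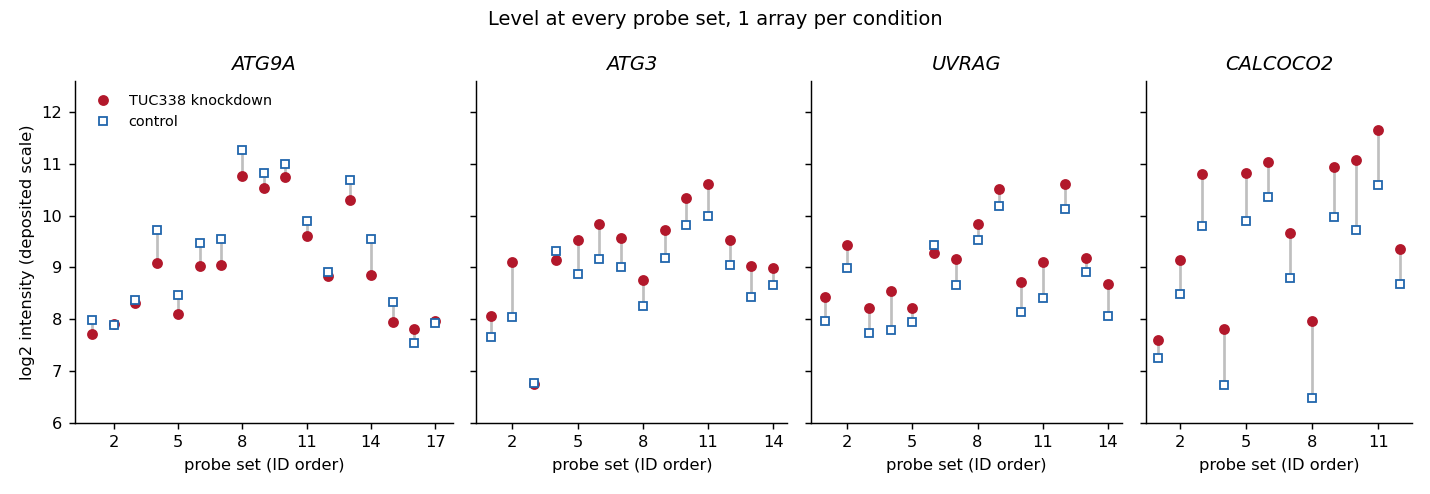
Log2 intensity (deposited scale) of every probe set of ATG9A, ATG3, UVRAG and CALCOCO2 in the order of probe set ID, with filled circles for the knockdown array and open squares for the control array, 1 array each. CALCOCO2 lies higher on the knockdown array at 12 of 12 probe sets, and ATG9A lies lower at 14 of 17.

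UVRAG is a subunit of a BECN1 lipid kinase complex that acts in autophagosome maturation and in endosomal traffic. Its 14 probe sets ran from 8.22 to 10.62 with a median of 9.14 on the knockdown array, and from 7.74 to 10.19 with a median of 8.54 on the control array. The ranges overlapped, since probe sets of a gene differ in brightness, but 13 of 14 were higher on the knockdown array. Relative to the median gene 12 of 14 lay above it, against 47.9% of all probe sets, with single differences from -0.43 to 0.47. The mean of 0.15 ± 0.22 corresponds to 1.11-fold, and no UVRAG probe set was at least 1.5-fold from the median gene in either direction. Of 2742 genes, 783 had a mean as high or higher, which places UVRAG within the bulk of the table.

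The mean difference of UVRAG was smaller over its brighter probe sets. The 7 probe sets at or above the median level of the array had a mean of 0.03 ± 0.22 relative to the median gene, and the 7 dimmer ones 0.27 ± 0.16. At the brightest one UVRAG had 10.62 in the knockdown, against 10.12 in the control. That is a difference of 0.50 in deposited values and 0.22 relative to the median gene. The next brightest had 10.52 in the knockdown, against 10.19 in the control, with 0.34 in deposited values and 0.05 relative to the median gene. The exception was a probe set with 9.28 in the knockdown, against 9.43 in the control, the only one lower in deposited values. It is among the 7 brighter ones and lay at -0.43 relative to the median gene, which lowers their mean. Over all probe sets the median difference moved little with level, at 0.02 relative to the median gene among the dimmest 10644 probe sets and -0.06 among the brightest 10644. The part of brightness in the UVRAG values was not tested.

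ATG9A is a multispanning membrane protein that redistributes lipids between the leaflets of the vesicles that feed the growing autophagosome. Its 17 probe sets ran from 7.71 to 10.76 with a median of 8.85 on the knockdown array, and from 7.55 to 11.26 with a median of 9.48 on the control array. At its brightest probe set the level was 10.76 in the knockdown, against 11.26 in the control, intensities of 1738 and 2454. The largest difference was at a probe set with 8.85 in the knockdown, against 9.54 in the control, a difference of -0.69 in deposited values and -0.97 relative to the median gene. The knockdown array was thus the dimmer one for ATG9A although it was the brighter one for most genes.

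All 17 ATG9A probe sets lay below the median gene, against 52.1% of all probe sets, with differences from -0.97 to -0.02. Every probe set lay below the median gene for 6.65% of the 1804 genes with at least 10 probe sets. At least 1.5-fold lower were 8 of the 17, against 8.19% of all probe sets, and in deposited values 2 of the 17 were, against 2.22%. The mean of -0.57 ± 0.25 is 1.48-fold lower, or 67.5% of the control level relative to the median gene, and 82.2% of it in deposited values. This mean fell just short of 1.5-fold, a size that 3.57% of the 2742 genes reached in the lower direction. A mean as low or lower was found for 115 of those genes, 4.19% of them.

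Within ATG9A the brighter probe sets differed more than the dimmer ones. The 10 at or above the median level had a mean of -0.69 ± 0.19 relative to the median gene, and the 7 below it -0.39 ± 0.24. The 3 probe sets that were higher on the knockdown array in deposited values were all dim: ATG9A had 7.91, 7.81 and 7.97 there on the knockdown array, against 7.89, 7.55 and 7.92 on the control array. The brightest probe sets did not differ most: the largest differences, -0.97 and -0.92, were at control levels of 9.54 and 9.73, and the 3 next in level to the brightest had -0.54, -0.57 and -0.67. Whether dim probe sets carried less ATG9A signal over background was not tested.

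**Figure D2:**
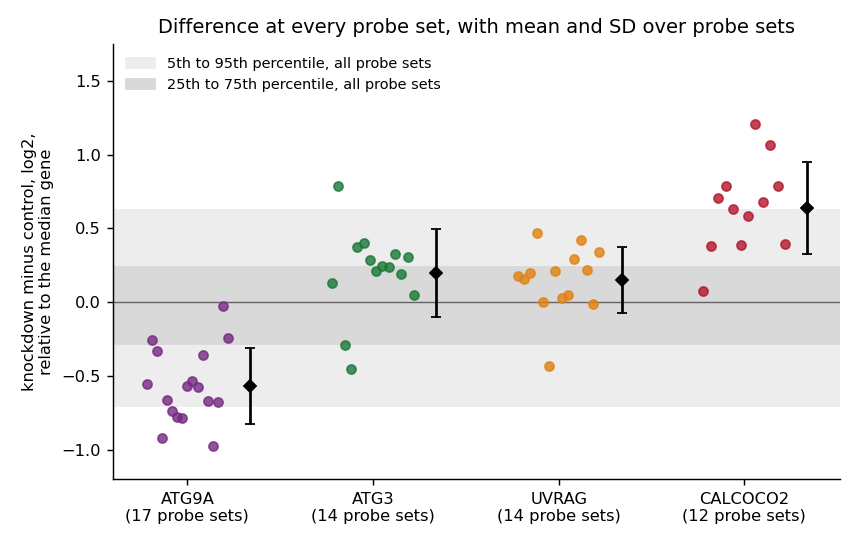
Knockdown minus control (log2, relative to the median gene) at every probe set of the 4 genes, points in ID order within a gene, with the mean and its SD over probe sets as a diamond with a bar, and bands for the 25th to 75th and the 5th to 95th percentile of all probe sets. All 17 ATG9A points lie below 0 and all 12 CALCOCO2 points above it, while ATG3 and UVRAG have 12 of 14 points above it each.

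ATG3 is the E2-like enzyme that passes ATG8 proteins to phosphatidylethanolamine, the lipid that anchors them in the autophagosome membrane. Its 14 probe sets ran from 6.76 to 10.61 with a median of 9.33 on the knockdown array, and from 6.76 upward with a median of 8.93 on the control array. In deposited values 12 of 14 were higher on the knockdown array. The 2 exceptions were adjacent in ID order: the dimmest probe set of ATG3, with 6.76 on both arrays, and one with 9.14 in the knockdown, against 9.31 in the control. These 2 were also the only ones below the median gene.

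The other 12 ATG3 probe sets spread from 0.05 to 0.79 relative to the median gene, and 10 of them lay between 0.13 and 0.40. The highest, the only ATG3 probe set at least 1.5-fold higher relative to the median gene (6.15% of all probe sets were), had 9.11 in the knockdown, against 8.04 in the control. At its brightest probe set the intensity of ATG3 was 1567 in the knockdown, against 1024 in the control. The mean of 0.20 ± 0.30 relative to the median gene is 1.15-fold, and 626 of 2742 genes had one as high or higher. Brighter and dimmer ATG3 probe sets gave the same mean to 2 decimals, 0.20 ± 0.27 over 8 and 0.20 ± 0.35 over 6.

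Promoter sequences, from RefSeq on GRCh38.p14, were found for ATG9A, ATG3 and CALCOCO2. They are shown because many genes of autophagy and lysosomes are known to share the E-box CACGTG, the core of the element bound by TFEB and TFE3, and the members can be compared for it. Each runs from 250 bases before to 50 after the gene start, in lower case with CACGTG in capitals, read on the strand of the gene. ATG9A is chr2:219229587-219229886 (minus strand), ATG3 chr3:112561913-112562212 (minus strand) and CALCOCO2 chr17:48830785-48831084 (plus strand).
ATG9A: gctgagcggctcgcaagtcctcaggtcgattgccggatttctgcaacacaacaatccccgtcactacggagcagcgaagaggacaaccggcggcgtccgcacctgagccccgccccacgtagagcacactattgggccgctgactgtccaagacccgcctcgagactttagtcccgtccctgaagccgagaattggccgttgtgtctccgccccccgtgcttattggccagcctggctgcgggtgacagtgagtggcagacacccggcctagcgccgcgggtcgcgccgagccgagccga
ATG3: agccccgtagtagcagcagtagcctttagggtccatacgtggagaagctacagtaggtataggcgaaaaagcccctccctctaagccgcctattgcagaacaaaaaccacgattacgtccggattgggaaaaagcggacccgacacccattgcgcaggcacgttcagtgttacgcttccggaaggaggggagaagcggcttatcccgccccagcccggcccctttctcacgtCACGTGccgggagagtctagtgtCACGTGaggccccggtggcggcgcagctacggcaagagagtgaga
CALCOCO2: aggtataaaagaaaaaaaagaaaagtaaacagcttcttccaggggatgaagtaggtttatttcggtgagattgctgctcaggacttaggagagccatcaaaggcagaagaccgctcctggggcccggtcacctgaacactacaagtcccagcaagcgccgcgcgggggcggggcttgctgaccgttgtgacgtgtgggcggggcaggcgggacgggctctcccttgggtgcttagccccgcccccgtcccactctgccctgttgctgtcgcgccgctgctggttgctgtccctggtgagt

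The ATG3 window held CACGTG at 2 places, with first bases at -18 and 6 counted from the gene start, the first base of the gene being 1. The windows of CALCOCO2 and ATG9A, the members with the largest differences, had none. The motif reads the same on both strands, so each match counts once. CACGTG was present in 7.43% of 27305 promoters of this length and at least 2 times in 0.696% of them. Among the 2372 array genes with a promoter, 11.2% held it and 1.43% held it at least 2 times. Of the 27 measured genes of the autophagy lists with a promoter, ATG3 included, 6 held it (22.2%), and ATG3 and MCOLN1 held it 2 times (7.41%). These matches are letters in a window and say nothing of whether a factor was bound.

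CALCOCO2, also called NDP52, is a cargo receptor that binds ubiquitin-coated bacteria and damaged mitochondria and links them to ATG8 proteins. Its 12 probe sets ran from 7.61 to 11.66 with a median of 10.23 on the knockdown array, and from 6.47 to 10.59 with a median of 9.26 on the control array. At its brightest probe set the level was 11.66 in the knockdown, against 10.59 in the control, intensities of 3230 and 1537. The knockdown array was the brighter one for CALCOCO2 at every probe set.

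4 probe sets of CALCOCO2 were at least 2-fold higher in deposited values, and they spanned its range of brightness. The largest difference, 1.49, was at the CALCOCO2 probe set dimmest on the control array, with 7.96 in the knockdown, against 6.47 in the control. The next, 1.35, was at a bright one, with 11.07 in the knockdown, against 9.73 in the control. The brightest probe set differed by 1.07, and another dim one, with 7.81 in the knockdown, against 6.74 in the control, also by 1.07. At the other end, the first CALCOCO2 probe set in ID order had 7.61 in the knockdown, against 7.24 in the control, a difference of 0.36. That one lay 0.08 above the median gene, the smallest difference of the gene.

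Relative to the median gene all 12 CALCOCO2 probe sets lay above it, from 0.08 to 1.21. Every probe set lay above the median gene for 6.10% of the 1804 genes with at least 10 probe sets. At least 1.5-fold higher were 7 of the 12 relative to the median gene, against 6.15% of all probe sets, and 11 of the 12 in deposited values, against 20.0%. The mean of 0.64 ± 0.31 is 1.56-fold, or 156% of the control level, and in deposited values it is 190%. CALCOCO2 was the only one of the 4 genes with a mean past 1.5-fold, a size that 2.30% of the 2742 genes reached in the higher direction, and 48 genes had a mean as high or higher. Its brighter and dimmer probe sets had similar means, 0.65 ± 0.22 over 8 and 0.61 ± 0.49 over 4.

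Set against each other on the same arrays, CALCOCO2 and ATG9A were the furthest apart of the 6 pairs, by 1.21 on the log2 scale or 2.31-fold. Their probe sets did not overlap, the lowest of CALCOCO2 being 0.08 and the highest of ATG9A -0.02 relative to the median gene. This restates that all 12 CALCOCO2 probe sets lay above the median gene and all 17 ATG9A ones below it. The share of other gene pairs without overlap is not given here. ATG3 and UVRAG differed by 0.05, less than the SD over probe sets of either gene, which does not measure the error of such a difference. CALCOCO2 lay above ATG3 by 0.44 and above UVRAG by 0.49, and ATG3 and UVRAG lay above ATG9A by 0.77 and 0.72. In these 5 other pairs the ranges of the probe sets overlapped. None of these contrasts depends on the offset between the arrays, since it is the same for all 4 genes. They were not tested, as there was 1 array per condition.

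**Figure D3:**
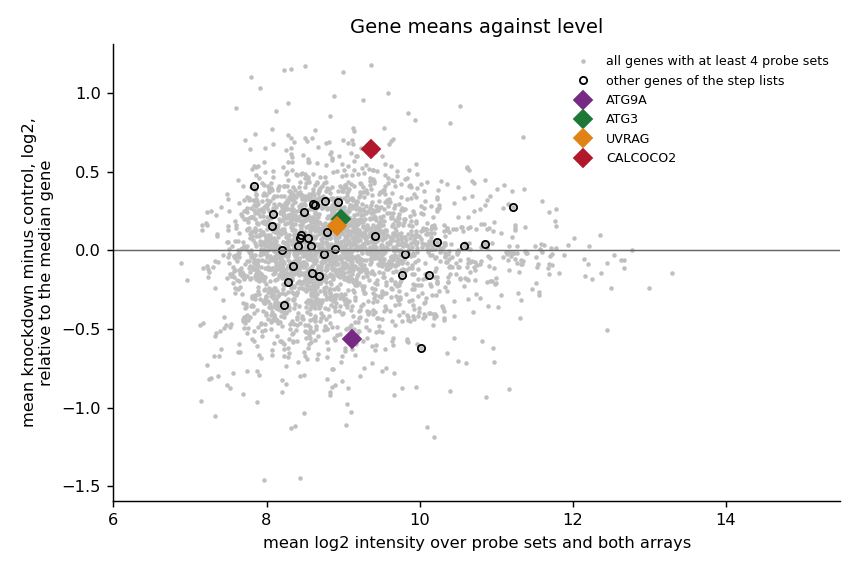
Mean knockdown minus control over probe sets (log2, relative to the median gene) against the mean log2 intensity for all 2742 genes with at least 4 probe sets (grey), the other genes of the autophagy lists (open circles) and the 4 genes (diamonds). CALCOCO2 at 0.64 and ATG9A at -0.57 lie near the upper and lower edge of the cloud, and ATG3 and UVRAG lie inside it.

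The other genes of the pathway were taken from 8 lists by step. Of 109 listed genes besides the 4, 31 were measured with at least 4 probe sets, and the other 78 were not analysed here, among them ULK1, SQSTM1, MAP1LC3B and TFEB. Of the 31, 21 lay above the median gene and 10 below it, with a median of 0.04 against 0.0020 over all 2742 genes. Of all 2742 genes 50.3% lay above it. Some list means close to the median gene, on both sides of it, changed sign under other processing, so the split is not exact. 1 of the 31, NPC2, had a mean at least 1.5-fold lower (3.57% of all genes) and none at least 1.5-fold higher (2.30%). Among all 35 measured genes of the lists, CALCOCO2 had the highest mean and only NPC2 had a lower one than ATG9A. The members and lists were chosen with earlier results of these data known, so these ranks are not independent of that choice.

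In 3 of the 8 lists every measured gene lay above the median gene, as did 50.3% of all 2742 genes. They are the lists of the initiation kinase complex, the BECN1 lipid kinase complexes and ATG8 conjugation. Joining them was not planned, so their joint count follows from the choice of lists. Of their 32 genes 13 were measured. The 11 besides ATG3 and UVRAG had means from 0.03 to 0.41 with a median of 0.23. The 25th and 75th percentiles of all genes were -0.17 and 0.18, but lists joined in this way are not a fair comparison with them. All 11 stayed above the median gene under each rescaling of the arrays that was run. Under other summaries of their probe sets 3 of the 11, ATG7, GABARAP and RB1CC1, turned below it. No gene of these 3 lists reached 1.5-fold. ATG101, which stabilises the initiation complex, had 8.90 in the knockdown, against 8.32 in the control, a mean of 0.29 ± 0.11. Of its probe sets 6 of 6 lay above the median gene, against 47.9% of all probe sets. The share of genes with every probe set on 1 side was counted only for genes with at least 10 probe sets, which leaves out ATG101. RB1CC1, the scaffold of that complex, had 8.72 in the knockdown, against 8.35 in the control, and its mean was 0.08 ± 0.26.

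In the list that holds UVRAG, NRBF2, a subunit of the autophagy-specific complex, had 9.23 in the knockdown, against 8.64 in the control, a mean of 0.30 ± 0.25. VMP1, a lipid scramblase of the endoplasmic reticulum that is listed here but is no subunit of these complexes, had 11.51 in the knockdown, against 10.95 in the control, a mean of 0.28 ± 0.35. BECN1, the core subunit that UVRAG binds, had 8.99 in the knockdown, against 8.59 in the control, with a mean of 0.11 ± 0.18. ATG14, which occupies the place of UVRAG in the complex that starts autophagosomes, had 8.29 in the knockdown, against 7.85 in the control. Its mean of 0.15 ± 0.28 equalled that of UVRAG to 2 decimals.

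Around ATG3, the protease ATG4A, which trims ATG8 proteins before conjugation, had the highest mean of its list at 0.41 ± 0.62, with 8.19 in the knockdown, against 7.50 in the control. Its large SD shows that the probe sets of ATG4A differed widely, although 12 of 13 lay above the median gene, against 47.9% of all probe sets. ATG4A had no value when only probe sets at or above the median level were kept. ATG4D, of the same protease family, had 0.24 ± 0.25 with 6 of 6 above it. ATG7, the E1-like enzyme that hands ATG8 proteins to ATG3, had 8.34 in the knockdown, against 7.82 in the control, a mean of 0.23 ± 0.21 with 13 of 15 above it. ATG16L1, which directs ATG3 to the membrane, had 0.09 ± 0.26. GABARAP, a substrate of ATG3, had 10.73 in the knockdown, against 10.42 in the control, a mean of 0.03 ± 0.23 with 1 of 5 above the median gene.

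The other cargo receptors measured lay nearer to the median gene than CALCOCO2. NCOA4, the receptor for ferritin, had 11.01 in the knockdown, against 10.69 in the control, a mean of 0.04 ± 0.28 that turned to -0.04 with the median over probe sets. SEC62, a receptor for the endoplasmic reticulum, had -0.15 ± 0.42. WDFY3, a scaffold for aggregates, had 8.32 in the knockdown, against 8.23 in the control, a mean of -0.20 ± 0.24. For WDFY3 59 of 79 probe sets lay below the median gene, against 52.1% of all probe sets. In deposited values all 3 means were above 0, and the median probe set of SEC62 lay above the median gene. ATG9A was the only gene of its list that was measured, so its lower level cannot be set beside the lipid transfer proteins ATG2A and ATG2B or the WIPI proteins. VMP1, the other lipid scramblase measured, lay at 0.28, against -0.57 for ATG9A.

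**Figure D4:**
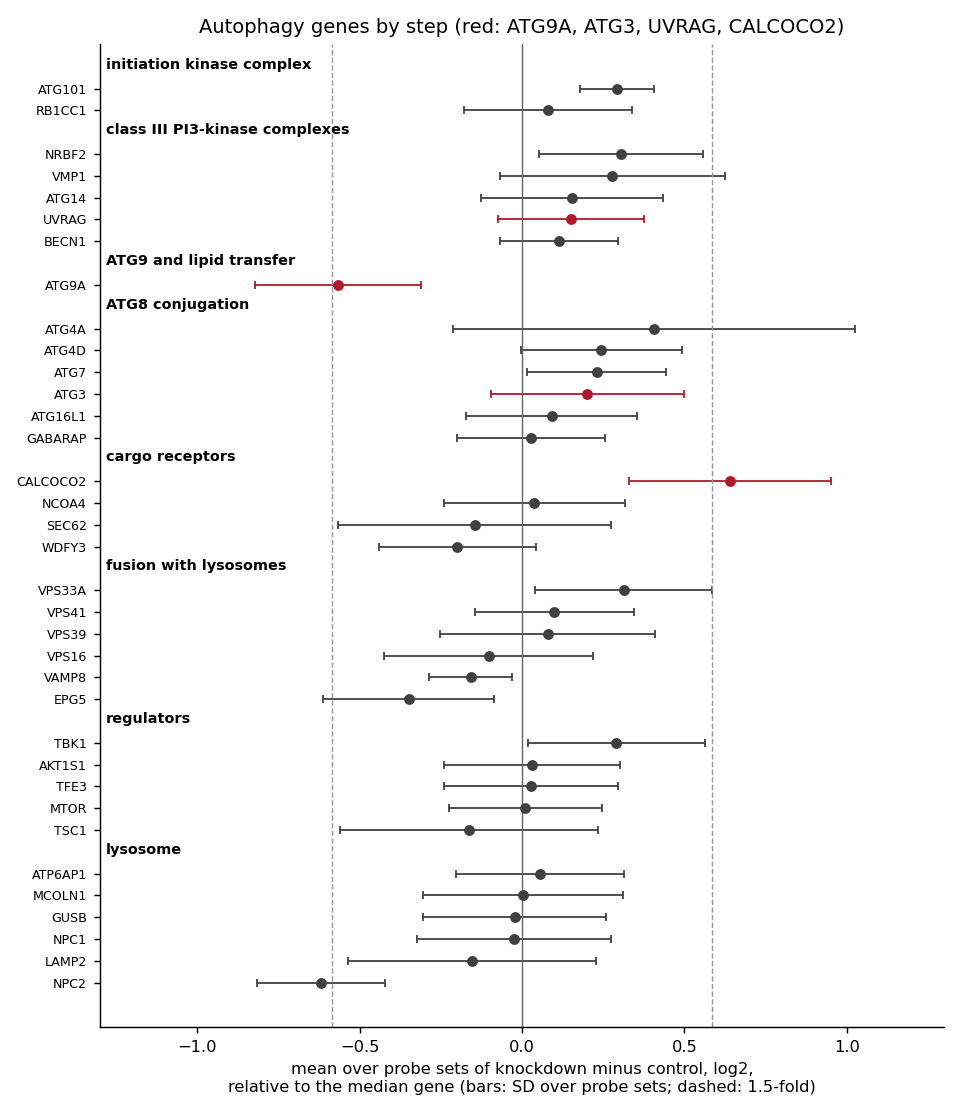
Mean knockdown minus control over probe sets (log2, relative to the median gene) for the 35 measured genes of 8 autophagy lists, with bars for the SD over probe sets, dashed lines at 1.5-fold and the 4 genes in red. CALCOCO2 at 0.64 lies past the upper dashed line, NPC2 at -0.62 past the lower one, and ATG9A at -0.57 just inside it.

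Genes of the last steps lay on both sides. In the list of fusion with lysosomes 3 of 6 genes were above the median gene, against 50.3% of all 2742 genes. VPS33A, of the HOPS tether, had 9.07 in the knockdown, against 8.47 in the control (mean 0.31 ± 0.27), and VPS41, of the same tether, had 0.10 ± 0.24, which turned to -0.05 at its brightest probe set and -0.03 over probe sets at or above the median level. EPG5, a tether of autophagosomes, had 8.19 in the knockdown, against 8.26 in the control, a mean of -0.35 ± 0.26. For EPG5 23 of 26 probe sets lay below the median gene, against 52.1% of all probe sets. VAMP8, a fusion protein of the SNARE family, had -0.16 ± 0.13. EPG5, NPC2 and ATG9A were the 3 of 35 list genes whose means were lower on the knockdown array in deposited values, as were those of 16.6% of all 2742 genes.

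Of the 5 regulators measured, 4 lay above the median gene, against 50.3% of all 2742 genes. TBK1, the kinase that phosphorylates cargo receptors and binds CALCOCO2 through adaptor proteins, had 8.91 in the knockdown, against 8.34 in the control. Its mean was 0.29 ± 0.27, with 15 of 18 probe sets above the median gene, against 47.9% of all probe sets. AKT1S1, an inhibitory subunit of mTORC1, and MTOR itself had 0.03 ± 0.27 and 0.01 ± 0.24. TSC1, which restrains mTORC1, had -0.16 ± 0.40. The means of MTOR, AKT1S1 and TFE3 changed sign under some other summaries of their probe sets, and that of TSC1 was above 0 in deposited values.

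In the lysosome list 2 of 6 genes lay above the median gene, against 50.3% of all 2742 genes. NPC2, which carries cholesterol inside the lysosome, had 9.85 in the knockdown, against 10.18 in the control, a mean of -0.62 ± 0.20. All 5 NPC2 probe sets lay below the median gene, against 52.1% of all probe sets. LAMP2, a membrane protein of the lysosome, had -0.15 ± 0.38, with 9.84 in the knockdown, against 9.71 in the control. ATP6AP1, an accessory subunit of the proton pump, had 0.05 ± 0.26, which turned to -0.08 at its brightest probe set, and MCOLN1, a calcium channel of lysosomes, 0.0027 ± 0.31. In deposited values the means of LAMP2 and of VAMP8 were above 0, and after quantile or loess normalization that of MCOLN1 lay below the median gene at -0.02.

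The genes whose mean levels on the 2 arrays lay nearest to each member were found among all genes with at least 4 probe sets, by the Euclidean distance over the 2 values, which reflects probe brightness as much as the difference. Nearest to CALCOCO2 were SDAD1, INTS14 and ITIH3, with means of 0.64, 0.62 and 0.64 relative to the median gene. Nearest to ATG9A were CHST15, LRP5 and CYP2S1, with means of -0.56, -0.63 and -0.50. ATG3 lay nearest to CCNL1, ZNF451 and OSTF1, and UVRAG nearest to SPATA20, KAT7 and LYAR. With 2 arrays this likeness rests on 2 values a gene.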

How the data were processed

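The authors deposited 1 table of natural log values for 45200 probe sets, with 1 column for each of 2 arrays. The scale is unstated and was read from the values: their exponentials below 2000 fell in the fullest residue bin modulo 0.5 for 1154 knockdown and 1167 control values, against a mean of 82.7 and 84.2 per bin, while read as log2 the fullest bins held 117 and 115. They were converted to log2. No label or header used here names the normalization, the software or the build. Symbols came from the platform annotation and were brought up to date through RefSeq (2449 of 2795 current, 331 updated, 15 kept). Groups came from the transfection label. Differences were averaged over the single-symbol probe sets of a gene, and the median over 2792 genes was subtracted. Lists and ranks used genes with at least 4 probe sets, and counts a fold of 1.5. The text names the 4 genes, up to 2 genes at each end of a list and the 3 nearest genes of each member, and also ATG7, ATG14 and TFE3, which fall outside that rule and were added after their values were seen. The members and lists were chosen with earlier results of these data known. The number of arrays limits the precision. The calculation of gene means was checked on simulated shifts with noise between probe sets only, so it does not bear on the spread between cultures. In addition, 10 alternatives were run. Python 3.11.15, numpy 2.4.6, pandas 2.3.3, statsmodels 0.14.6 (loess) and matplotlib 3.10.9 were used.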

Additional observations from a re-analysis of the deposited data

How the results depend on the processing

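The 10 alternatives kept the sign of the mean of each of the 4 genes. CALCOCO2 ranged from 0.44 to 0.93, ATG3 from 0.14 to 0.48, UVRAG from 0.05 to 0.44 and ATG9A from -0.70 to -0.28. Shifts beyond the SD over probe sets came from deposited values, at -0.28 for ATG9A and 0.44 for UVRAG. Of the 57 probe sets, 8 were at least 1.5-fold higher and 8 lower relative to the median gene, against 6.15% and 8.19% of all probe sets. The 8 lower were all of ATG9A, and of the 8 higher 7 were of CALCOCO2 and 1 of ATG3. The counts over the 57 became 19 and 2 in deposited values, where the offset between the arrays is left in, against 20.0% and 2.22%. They became 2 and 2 with values read as log2, which shrinks every difference. Of the 35 list genes, 1 was at least 1.5-fold higher and 1 lower, against 2.30% and 3.57% of all 2742 genes. Deposited values gave 4 and 0, values read as log2 0 and 0, and the brightest probe set 3 and 3. Probe sets at or above the median level gave 2 lower. The shares of all genes past 1.5-fold under these alternatives are not given here. Genes of the lists above the median gene were 24, and 20 to 24 over the alternatives other than deposited values with the offset left in. In those deposited values 32 had means above 0, while 16.6% of all 2742 genes had means below 0. No paired analysis was possible because each condition had 1 array. With 1 array per condition, differences between cultures cannot be told apart from that of the knockdown.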
